A study of Ginkgo biloba with 2 samples.

Results

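The abundant numbered miRNAs of ginkgo leaves are 54 of the 467 miRNA names in a small RNA count table of Ginkgo biloba, a gymnosperm tree. The authors gave them numbers, as in novel_1, in place of a name from miRBase, the public catalogue of miRNAs. They were chosen by their abundance, a sum of at least 1000 raw reads over both libraries, so their abundance is given here as a description only. The other 161 numbered names had fewer reads, and 252 names were taken from miRBase entries of other plants.

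The leaf types compared are normal green leaves and leaves labelled as mutant yellow, with 1 library each, both from adult ginkgo growing outdoors and collected from May to July of consecutive years. The collection text describes yellow-green stripes on the mutant leaves, so the yellow library may hold green tissue, and it speaks of a single tree. The extraction text mentions cambium, while both samples carry the tissue label leaf. No miRNA marks a single leaf cell type, so the tissue label could not be checked against markers. A single library stands for each leaf type, so the spread between replicates is unknown and no test between leaf types was possible. The intervals below are 95% exact intervals. They cover counting error alone, and even that is a lower limit, since copies of 1 molecule made by PCR cannot be recognised here.

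Plant miRNAs are short RNAs cut from hairpin precursors by Dicer-like enzymes and loaded onto Argonaute proteins, which they guide to messenger RNAs with nearly matching sites. The messenger RNA is then cut or its translation is lowered. Families shared by most land plants regulate transcription factors of leaf form and growth. Lineages also carry miRNAs of their own, and in many seed plants, conifers included, the miR482 and miR2118 families are directed at genes of NBS-LRR immune receptors. The sequences of the numbered miRNAs were not used here, so they are described by their counts and by their predicted target genes.

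The 54 miRNAs together took up 1344548 of 2084893 reads from green and 1896864 of 2793966 from yellow leaves. That was 64.5% (64.4 to 64.6) of the green and 67.9% (67.8 to 67.9) of the yellow column total, a sum in which some reads of named families count under several names. They took 99.2% of the reads of all 215 numbered names in green and 99.4% in yellow leaves. The pool was uneven. A single miRNA, novel_1, gave 36.5% of the members' green reads and 53.6% of their yellow reads, and the 5 most-read gave 81.9% and 83.4%.

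Without novel_1 the members' share ran the other way. With novel_1 left out of both the members and the total, the others made up 53.6% (53.5 to 53.6) of green reads but 49.5% (49.5 to 49.6) of yellow ones. The higher summed share of the yellow library therefore rested on that 1 name.

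Among the 11 miRNAs with at least 20000 reads, novel_1 had 490722 green and 1016266 yellow reads and ranked first in both. The second in both, novel_12, had 372332 and 270396 reads. The next, novel_189, had 119931 and 106849 reads. These 3 names made up 73.1% of the members' reads in green and 73.5% in yellow leaves, an almost equal sum from very different parts.

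Next came novel_14 with 46443 green and 122365 yellow reads. With 71943 and 65754 reads, novel_15 was the fourth of the members in green and the sixth in yellow leaves. By contrast, novel_16 had 15379 green and 92749 yellow reads. Its rank among all 467 names moved from 17 in green to 7 in yellow leaves, and its rank among the members from 9 to 5. The 5 remaining names of this size were novel_17 (37356 and 27152 reads), novel_18 (28733 and 20303), novel_20 (19219 and 23587), novel_19 (14255 and 11107) and novel_29 (13472 and 7905). Every member had reads in both libraries, with 166 reads as the lowest count of any member in a library, and no member shared its pair of counts with another name.

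**Figure D1:**
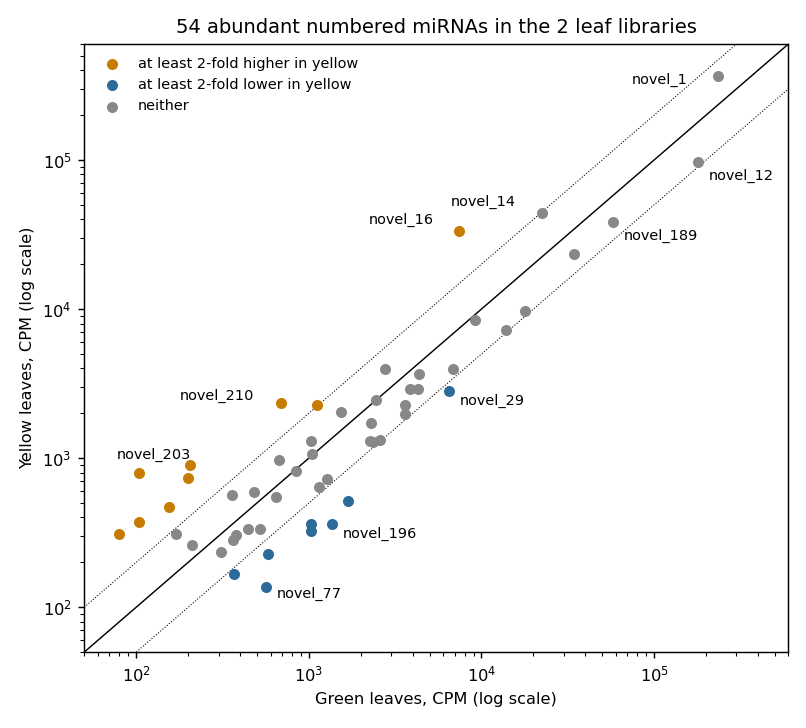
Reads scaled to the column total (CPM, counts per 1000000) of the 54 miRNAs in the green library (horizontal axis, log scale) and the yellow library (vertical axis, log scale), 1 point per miRNA. The solid line marks equal CPM and the dotted lines a 2-fold difference; novel_1 and novel_12 stand at the top right, and the points outside the dotted lines lie mostly among the less-read names, with novel_16 and novel_29 as the exceptions at higher CPM.

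The comparison of the leaf types asked how each miRNA's CPM in yellow leaves related to that in green leaves. A miRNA was called higher or lower where the libraries differed at least 2-fold and the interval of the ratio left out 1. CPM here is the count per 1000000 reads of the column total. When scaled by the column total, 9 of the 54 members were higher, against 12.1% of the 306 names with at least 20 reads, and 8 were lower, against 24.8% of those names. Their median log2 ratio of yellow over green was -0.39, and that of all 306 names was -0.43. In bulk leaf RNA a difference in the number of cells of a type and a difference in RNA per cell cannot be told apart.

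The split depended on the scaling. TMM scaling, which trims extreme names before it sets the level, gave 14 higher members (20.9% of all names were higher) and 5 lower members (16.3% of all names). Median-of-ratios scaling gave 13 higher members (19.6% of names) and 5 lower (17.6% of names). They multiply every ratio by a common factor, 1.38 and 1.34. With a 1.5-fold limit on the total scale 13 members were higher (18.0% of names) and 21 lower (34.3% of names). With a 3-fold limit 8 were higher (10.1% of names) and 4 lower (15.4% of names). As a share of the 54, the higher members made up 16.7% on the total scale, 25.9% with TMM and 24.1% with median of ratios, each slightly above the background. The lower members made up 14.8%, 9.26% and 9.26%, each below it. Every member has at least 1000 reads, and among the 110 names with that many, the members included, 9.09% were higher and 17.3% lower on the total scale. With TMM these shares were 26.4% and 10.0%, and with median of ratios 23.6% and 10.0%. Without the members, the 56 miRBase names with at least 1000 reads had 1 higher and 11 lower on the total scale. They had 15 and 6 with TMM, and 13 and 6 with median of ratios. Against names of like depth the members thus stood above the background for higher calls on the total scale and close to it in the other cases. No test of these differences was made.

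The other scalings multiply all ratios by at least 1, so the 9 higher members could not lose their call under any of them. The one with most reads was novel_16, which went from 7376 CPM in the green to 33196 CPM in the yellow library, a ratio of 4.50 (4.42 to 4.58). The highest ratio belonged to novel_203, with 215 green and 2215 yellow reads, at 7.69 (6.68 to 8.88). Then came novel_176 with 429 and 2527 reads, at 4.40 (3.97 to 4.88). All 3 stood well beyond the 2-fold limit.

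Of the others, novel_180 had 166 green and 866 yellow reads, a ratio of 3.89 (3.29 to 4.62). The counts of novel_57 were 414 and 2066, with a ratio of 3.72 (3.35 to 4.15). For novel_217 they were 217 and 1037, with a ratio of 3.57 (3.08 to 4.15). The intervals of these 3 overlap, so their order is not fixed by the counts.

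With 1441 green and 6546 yellow reads, novel_210 had a ratio of 3.39 (3.20 to 3.59). The ratio of novel_70 was 3.03 (2.68 to 3.43) from 324 and 1314 reads. The last of the 9, novel_46, had 2324 and 6318 reads and a ratio of 2.03 (1.93 to 2.13), an interval that reaches below the 2-fold limit. The 9 together held 1.003% of green reads and 4.14% of yellow reads, of which novel_16 alone made up 0.738% and 3.32%.

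Lower members numbered 8 and held 1.31% of green reads and 0.493% of yellow reads. The lowest was novel_77, with 1170 green and 383 yellow reads, 4.09-fold lower (3.64 to 4.61). After it, novel_196 had 2821 and 1017 reads and was 3.72-fold lower (3.46 to 3.997). The counts of novel_219 were 3530 and 1451, which is 3.26-fold lower (3.07 to 3.47). None of these 3 had a predicted target gene.

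With 2160 green and 913 yellow reads, novel_58 was 3.17-fold lower (2.93 to 3.43). Another, novel_64, had 2156 and 1009 reads and was 2.86-fold lower (2.66 to 3.09). These 5 were lower under each of the 6 scalings. The other 3 were lower on the total scale and lost the call with TMM and with median of ratios. They were novel_106 at 2.55-fold lower (2.32 to 2.81, 1207 and 634 reads), novel_29 at 2.28-fold lower (2.22 to 2.35) and novel_76 at 2.18-fold lower (1.94 to 2.45, 765 and 470 reads).

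Most of the most-read names were not called. On the total scale novel_1 was 1.55-fold higher in yellow leaves (1.54 to 1.55). For novel_14 the ratio was 1.97 (1.95 to 1.99). It was 1.83 (1.62 to 2.08) for novel_194, one of the least-read members, and all 3 passed 2-fold with TMM and with median of ratios. The ratio of novel_12 was 0.542 (0.539 to 0.545), that of novel_18 was 0.527 (0.518 to 0.537) and that of novel_189 was 0.665 (0.659 to 0.670), and none of them was called under any scaling. The ratio of novel_20 was 0.916 (0.898 to 0.933) on the total scale and 1.23 by median of ratios, so its direction followed the scaling. By reads, of the 27 members with fewer than 5000 reads 6 were higher and 7 lower. Of the 16 with at least 5000 and under 20000 reads 2 were higher and none lower. Of the 11 with 20000 or more 1 was higher and 1 lower. These calls are on the total scale, where 9.09% of the 110 names with at least 1000 reads were higher and 17.3% lower. By median of ratios the 3 groups had 8 higher and 5 lower, 2 and 0, and 3 and 0. Of the 110 names, 23.6% were higher and 10.0% lower by median of ratios. On the total scale the median size of the log2 ratio, regardless of sign, was 0.87, 0.53 and 0.88 in these 3 groups. On that scale the most-read names were thus no nearer to a ratio of 1 than the least-read. A change of scaling moves these distances, so the statement cannot be carried over to the other scales.

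**Figure D2:**
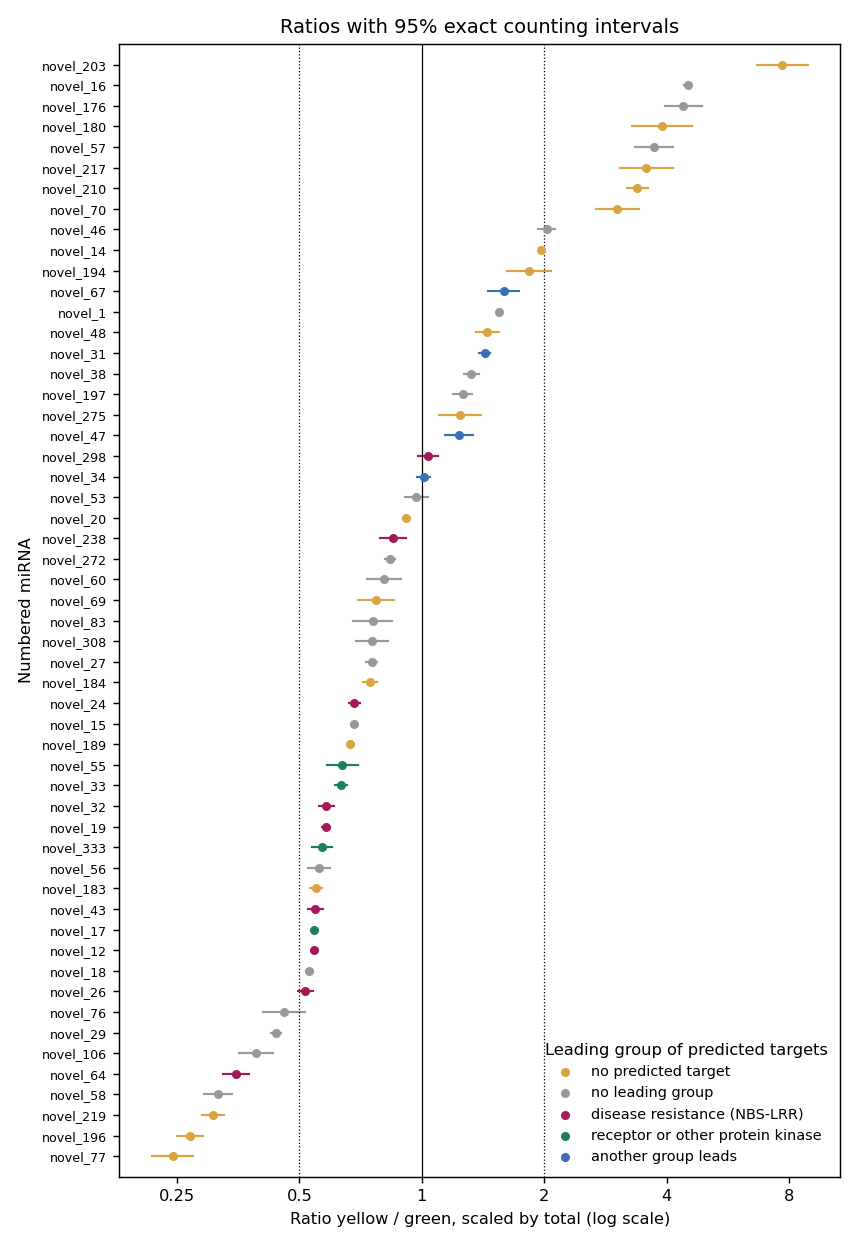
Ratio of yellow over green CPM for each of the 54 miRNAs (horizontal axis, log scale, scaled by the column total), ordered by ratio, with 95% exact intervals of the counts as bars. Colours give the leading keyword group, one with at least 2 genes and at least 50% of a miRNA's annotated target genes. The miRNAs led by disease resistance targets lie between 0.349 and 1.03 and those led by kinase targets between 0.542 and 0.637.

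Predicted target genes, which played no part in choosing the miRNAs, were listed for 37 of the 54 members, against 133 of 161 other numbered names and 243 of 252 miRBase names. The 37 members had a median of 7 target genes each, with 1 to 43, and the other numbered names with targets a median of 6. In all the members had 305 target genes, and a protein match was given for 229. No test of these differences was made, and a predicted site is not evidence that the gene is cut.

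Members without any listed target gene numbered 17 and included 3 of the 11 most-read names, novel_189, novel_14 and novel_20. They made up 5 of the 9 higher members (novel_203, novel_180, novel_217, novel_210 and novel_70) and 3 of the 8 lower ones. On the total scale 5 of these 17 were thus higher and 3 lower. Of all members 16.7% were higher and 14.8% lower on that scale. Among names with at least 20 reads the shares were 12.1% and 24.8%, and with at least 1000 reads 9.09% and 17.3%. These differences were not tested. For the most abundant miRNA, novel_1, only Gb_28096 and Gb_40656 were listed, and neither had a protein match. Members with at least 1 target of known protein match therefore held 47.6% of the members' reads in green and 31.1% in yellow leaves.

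Immune receptor genes were the most frequent kind of target. The keyword group of disease resistance proteins held 55 of the 229 annotated target genes of the members, or 24.0%. It held 4.42% of those of the other numbered names, 4.17% of those of the miRBase names and 4.87% of the 2031 annotated target genes in the table. The table has 99 such genes, so 55.6% of them were listed for these 54 miRNAs. Of the 55, 42 were listed for no miRBase name and 13 were shared with one. Sharing was thus no rarer here than over all 305 target genes of the members, of which 49, or 16.1%, were shared. The best match of 45 of the members' genes was TMV resistance protein N, the tobacco immune receptor of the NBS-LRR class that recognises tobacco mosaic virus. Target lists of related miRNAs overlap and many of these genes resemble each other, so the genes are not independent counts.

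Receptor-like and other protein kinases came second, with 36 genes or 15.7%, against 8.46% for the other numbered names and 7.32% for miRBase names. The keywords of this group are loose. They took in 2 genes matching a Toll/interleukin-1 receptor-like protein and 2 matching Receptor-like protein 12, and left out 2 matching NSP-INTERACTING KINASE 3. The group of F-box and ubiquitin ligase proteins, most of which help mark other proteins for breakdown, made up 6.99%, against 1.97% and 4.48%. Of these 16 genes 11 were targets of novel_67, and without it the share was 2.34%. The group also held Gb_20207, matching a ubiquitin carboxyl-terminal hydrolase, and Gb_04525, matching a ubiquitin-like-specific protease, which are not ligases. Without novel_12 the disease resistance share was still 20.9%, and without novel_55 that of the kinases was 11.7%. Most other groups were less frequent among the members. Transcription factors made up 3.93% of the members' annotated targets and 12.0% of those of miRBase names. Mobile element proteins made up 1.31% against 10.2% for other numbered and 12.4% for miRBase names, and chloroplast proteins 2.18% against 7.37% and 6.41%. Pentatricopeptide and mitochondrial proteins made up 3.49% against 10.7% and 6.31%. Transporters, channels and pumps made up 1.31% against 5.01% and 4.37%. Pigment and specialised metabolism proteins made up 2.18% against 1.87% and 1.73%, and all 5 of these genes were targets of novel_34. The small RNA pathway group had 1 gene among the members and 2 in the whole table.

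**Figure D3:**
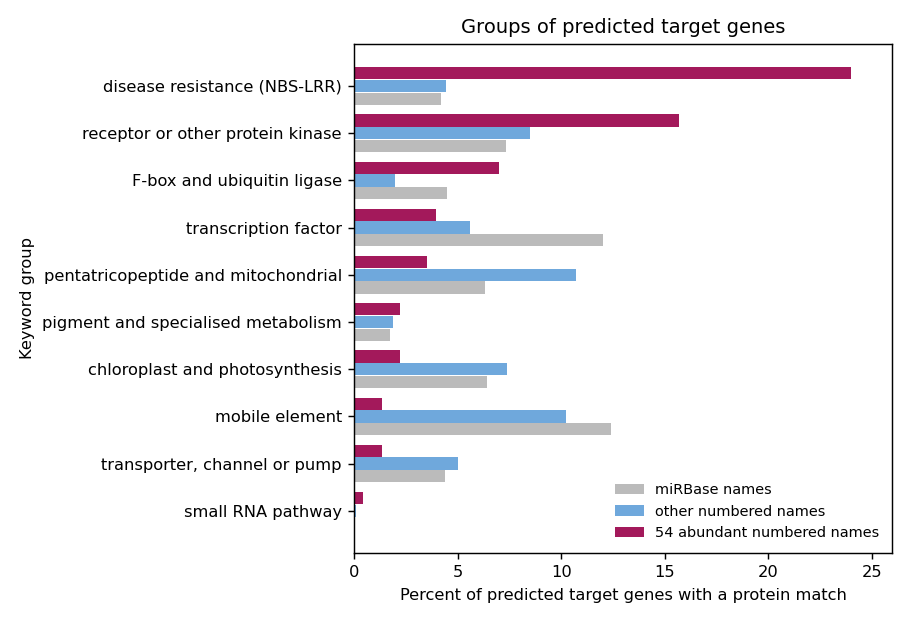
Share of annotated predicted target genes (horizontal axis, percent of genes with a protein match) in each keyword group for the 54 miRNAs, the other numbered names and the miRBase names. Disease resistance proteins make up 24.0% of the members' targets and 4.42% and 4.17% of the others, while mobile elements make up 1.31% against 10.2% and 12.4%.

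Disease resistance genes led the target lists of 9 members, meaning at least 2 genes and at least 50% of the annotated ones, a rule set after the lists were seen. These were novel_12, novel_19, novel_24, novel_26, novel_43, novel_32, novel_298, novel_64 and novel_238, with 92 target genes of which 54 were in the group. They held 19.96% of green reads and 10.96% of yellow reads, most of it from novel_12. On the total scale 8 of the 9 had a ratio below 1, 1 was called lower and none higher, and their median log2 ratio was -0.78 against -0.39 for all 54. Ratios below 1 were frequent on that scale, in 33 of the 54 members and 200 of the 306 names, and 24.8% of names were called lower. With median of ratios and with TMM 7 of the 9 stayed below 1, against 24 and 23 of the 54 members and 154 and 151 of the names. Below the median of the 54 stood 7 of the 9, a position that no scaling changes.

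The leading one by far was novel_12, with 16 of its 20 annotated targets in the group. Gb_14267 and Gb_16324, both matching TMV resistance protein N, were also listed for pgi-miR482a. Other targets lie outside the group, such as Gb_06776, which matched a chloride channel of the CLC type. A further one, Gb_26262, matched a Toll/interleukin-1 receptor-like protein, whose domain is found in such receptors. The keywords placed it with the receptor and other protein kinases instead. The matches varied in strength, with E values from 1.66e-124 for Gb_40694 to 4.23e-06 for Gb_08935 across the disease resistance targets of the 9.

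With 4909 green and 3603 yellow reads, novel_43 had a ratio of 0.548 (0.524 to 0.572), close to that of novel_12. It had the longest list of the 9, with 25 target genes and 12 of 22 annotated ones in the group. It shared Gb_14946, Gb_23307 and Gb_29339 with novel_12, all matching TMV resistance protein N. Its list also held callose synthases, which build a cell wall glucan laid down at infection sites, and enzymes matching ent-kaurene oxidase, a step of gibberellin synthesis.

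A closely linked set was formed by novel_19, novel_26, novel_32 and novel_24. Their ratios were 0.581 (0.567 to 0.596), 0.517 (0.496 to 0.539), 0.583 (0.558 to 0.609) and 0.682 (0.662 to 0.703). In reads, novel_26 had 5360 in green and 3713 in yellow leaves, novel_32 had 4694 and 3668, and novel_24 had 8884 and 8122. All 4 listed Gb_21899, which matched a probable disease resistance protein and was listed for 10 names in all, the largest number of members on any target gene. The lists of novel_19 (12 genes) and novel_26 (10 genes) had 6 genes in common, among them Gb_04466, Gb_21898 and Gb_25646. The last was listed for novel_12 as well. For novel_24 and novel_32 the shared genes numbered 3, including Gb_08647.

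The remaining 3 of the 9 were apart from these. With 2161 green and 2996 yellow reads, novel_298 had a ratio of 1.03 (0.979 to 1.09), the only one of the 9 above 1 on the total scale. It had 12 of 17 annotated targets in the group, shared Gb_11356 and Gb_31442 with novel_12, and its list also held Gb_28786, matching a bHLH transcription factor. The ratio of novel_238 was 0.850 (0.790 to 0.916), from 1340 and 1527 reads, and all 6 of its annotated targets were in the group. Between novel_64 and novel_238, 1 gene was shared, Gb_18999, which matched TMV resistance protein N. The other targets of novel_64 were Gb_16703, with the same match, and Gb_09729, matching a FRIGIDA-like protein.

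Receptor kinase targets led in 4 members, novel_17, novel_33, novel_333 and novel_55, whose ratios lay between 0.542 and 0.637. None was called, and all 4 stayed below 1 with TMM and median of ratios. Of the 306 names, 193 were uncalled and 200 below 1 on the total scale. With TMM and median of ratios 151 and 154 of the names were below 1, and 23 and 24 of the 54 members. The 4 miRNAs are few and some share targets, so this is a description only. The first pair, novel_17 and novel_33, was nearly the same in its targets. The lists of novel_17 (13 genes) and novel_33 (14 genes) shared 10 genes, or 76.9% and 71.4% of them. Among these were Gb_00780 and Gb_16667, the latter matching HSL1, a relative of the Arabidopsis floral abscission receptor HAESA, and Gb_26228, matching HAIKU2, a receptor kinase of Arabidopsis seed growth.

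The ratio of novel_17 was 0.542 (0.534 to 0.551), and that of novel_33, with 7498 green and 6363 yellow reads, was 0.633 (0.612 to 0.655). The intervals do not overlap, and both had a ratio below 1 on each of the 3 scales. In novel_333 (2661 and 2026 reads, ratio 0.568, 0.536 to 0.602) 5 of 6 annotated targets were in the group, and it shared Gb_16662, another HSL1 match, with novel_33. In novel_55 (1089 and 930 reads, ratio 0.637, 0.583 to 0.696) 11 of 15 annotated targets were, among them genes matching FLS2, the flagellin receptor of Arabidopsis, and several matching GSO1. Gb_21066, matching PEPR2, a receptor for peptides released on wounding in Arabidopsis, was listed for novel_17, novel_33 and the lower member novel_106.

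The ratios of members that shared targets were compared next. In 8 pairs, formed by 11 members, at least 2 target genes were shared, and the median difference in log2 ratio within these pairs was 0.19, against 1.07 over all 1431 pairs of members. Over all 55 pairs of the same 11 members it was 0.22, so pairs that shared genes were hardly closer than other pairs of these members. In the 8 pairs with 1 shared gene the median was 0.32, and novel_64 and novel_238, with ratios of 0.349 and 0.850, were one of them. Among the 8 pairs with at least 2 shared genes, the widest gap was between novel_12 and novel_298, whose ratios differed 1.91-fold. The narrowest of them was between novel_19 and novel_32, 1.003-fold. The last of the pairs was novel_18 with novel_76, which shared 2 genes without a protein match and differed 1.15-fold. These differences do not depend on the scaling, but several pairs share a member and no test was made.

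For the most-read of the higher members a gene of the small RNA pathway itself was listed. For novel_16, 2 targets were listed, Gb_13708, matching Argonaute 7, and Gb_16854, matching a subunit of ribonuclease H2. In Arabidopsis, Argonaute 7 binds miR390 and starts the trans-acting small RNAs that restrain auxin response factors and set leaf polarity. No other name in the table was listed for Gb_13708. The RNA level of this gene was not measured in these data.

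The other higher members with targets were of different kinds. For novel_57, 43 genes were listed, the most of any member, among them Gb_00092 and Gb_00093, both matching an ankyrin repeat protein, and Gb_14340, matching the ubiquitin ligase XB3, which was also listed for ghr-miR482a. In rice, XB3 partners the immune receptor kinase XA21. Of the 7 targets of novel_46, Gb_17670 matched a transposon polyprotein and was also listed for 3 names of miR845, a family that targets retrotransposons in Arabidopsis pollen. Only Gb_23215, without a protein match, was listed for novel_176.

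Among the lower members, novel_58 had Gb_00867 (a pentatricopeptide repeat protein), Gb_01137 (an actin-capping subunit) and Gb_03374 (a chloroplast fatty acid desaturase) as targets. The list of novel_106 included Gb_03808, matching SUC2, the sucrose carrier that loads the phloem in Arabidopsis. For novel_29 it included Gb_04947, matching ribonuclease Z, which trims transfer RNA ends, and Gb_09155, matching a subunit of a SWI/SNF chromatin remodelling complex. In novel_76 it included Gb_04847, matching HAIKU2, and Gb_08063, matching an NSP-interacting receptor kinase. For novel_18, which was not called, Gb_00368, matching a cysteine desulfurase, and Gb_31919, matching a glucosidase subunit, were listed.

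Some uncalled members had uniform lists, and these are named after the lists were seen. All 6 targets of novel_34 matched enzymes of the cytochrome P450 class, which oxidise many plant metabolites, and 5 of them carry that name. Its counts were 5096 and 6909, and its ratio of 1.01 (0.976 to 1.05) included 1 on the total scale and was 1.36 by median of ratios. For novel_47, 4 of 5 annotated targets matched pentatricopeptide repeat proteins, which process RNA in chloroplasts and mitochondria. It had 997 and 1652 reads and a ratio of 1.24 (1.14 to 1.34).

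The next question was whether these miRNAs share predicted targets with the families named in miRBase. Of the 37 members with targets, 14 shared at least 1 gene with a miRBase name, or 37.8%, and of the 133 other numbered names with targets 52 did, or 39.1%. The shared genes numbered 49, which is 16.1% of the members' 305 target genes and 3.69% of the 1327 target genes of miRBase names. With at least 2 shared genes 10 members remained. The overlap was strong for a few members and slight for the rest.

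The strongest overlaps were those of novel_31 and novel_67. For novel_31, 8 of 9 target genes were shared with miR159, which restrains GAMYB transcription factors, and all 8 with the name pde-miR159, 80.0% of that name's list. They included Gb_11536 and Gb_23921, both matching GAMYB, and Gb_16005, matching an expansin, a protein that loosens cell walls. Of the same 9 genes, 3 were shared with miR319, a family close to miR159. With 5769 green and 11035 yellow reads, novel_31 had a ratio of 1.43 (1.38 to 1.47), and pta-miR159a, the most-read name of the family, had 10683 and 25949 reads and a ratio of 1.81 (1.77 to 1.85). Both were above 1 on the total scale and, since the other scalings raise every ratio, on the other scales as well, with intervals that do not overlap. Of the 16 miR159 names that share genes with novel_31 and have at least 20 reads, 12 were above 1 and 4 below, the latter with intervals that include 1. The interval of zma-miR159e-3p, above 1 at 1.03 (0.801 to 1.32), included 1 as well. These names are not separate observations, since osa-miR159a.1 and lus-miR159b, for example, had the same counts, 73 and 94. The miR319 names went the other way. Of 4 with at least 20 reads all were below 1 on the total scale. On that scale 2 were called lower, mtr-miR319a-3p at 0.458 (0.443 to 0.474) and ppt-miR319a at 0.432 (0.396 to 0.470). Ratios below 1 were frequent there. Of the 142 miRBase names with at least 20 reads, 43 were above 1, 99 below and 37 called lower. The other scalings raise every ratio, so these 2 calls are given for the total scale only.

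For novel_67, 13 of 15 target genes were shared with vvi-miR2950-5p, a grapevine name, which is 86.7% of either list. They included Gb_01350, Gb_06118 and Gb_07152, each matching an F-box protein, and 11 of its 15 targets were in the F-box and ubiquitin ligase group. Its counts were 745 and 1586 and its ratio 1.59 (1.46 to 1.74). The grapevine name had 42 and 97 reads and a ratio of 1.72 (1.19 to 2.54). The intervals overlap widely, and the numbered name had by far the most reads. By median of ratios novel_67 reached 2.13 and was called higher.

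With smo-miR1083, a name from the spikemoss Selaginella moellendorffii, novel_15 shared 4 genes, which were all 4 targets of that name and 4 of its own 8. Of these, Gb_10394 and Gb_15501 matched ARR2 and Gb_27043 matched ARR1, response regulators that carry the cytokinin signal to genes in Arabidopsis. Gb_15501 was also listed for vvi-miR396b and ath-miR396b-5p, names of miR396. The ratio of novel_15 was 0.682 (0.675 to 0.689). The spikemoss name, with 4152 green and 2344 yellow reads, had one of 0.421 (0.400 to 0.443) and was called lower on the total scale. Both were below 1, by different amounts beyond counting error. The miR396 names went the other way, with ratios of 1.23 for both vvi-miR396b (61971 and 101786 reads) and ath-miR396b-5p (62840 and 103508 reads).

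Shared genes with miR482 were found for 7 members, more than with any other family. They were 7 of 12 genes for novel_19, 6 of 10 for novel_26, 5 of 12 for novel_32, 2 of 5 for novel_24, 2 of 21 for novel_12, 2 of 17 for novel_298 and 1 of 43 for novel_57. Genes of ptc-miR1448 were shared by novel_19 (6), novel_26 (5), novel_24 (2) and novel_32 (2), and 1 gene of miR2118, Gb_16275, by novel_298. The 7 names of miR482 had 12 green and 17 yellow reads in all, and ptc-miR1448 had 7 and 8. The 6 members that shared at least 2 genes with miR482 had 407686 and 300002 reads, and without novel_12 still 35354 and 29606. The named counts were too low for a ratio, so the direction of the numbered miRNAs could not be set beside that of miR482.

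The other overlaps were of single genes. They joined novel_60 to miR167 through Gb_11920, matching a peptidyl-prolyl isomerase, and novel_55 to bdi-miR159a-5p through Gb_41563, matching GSO2. For novel_43 they were Gb_11179 with ath-miR5658 and Gb_18336 with hbr-miR156. In novel_60, with 789 and 854 reads and a ratio of 0.808 (0.732 to 0.891), the other targets included 2 genes matching WUSCHEL-related homeobox proteins, a family that includes a regulator of shoot stem cells in Arabidopsis. For novel_67 a single gene, Gb_01350, was shared with osa-miR164e, which had 76 and 24 reads and was called lower at 0.236 (0.142 to 0.377), against 1.59 for novel_67. For novel_31 they were Gb_31711 with ath-miR394a (13 and 8 reads) and Gb_34464 with cme-miR858 and ppe-miR858, each with 3 green reads and none in yellow. All names of miR858 together had 527 and 35 reads, against a ratio of 1.43 for novel_31. No target was shared with miR166, the family of leaf polarity, by any of the 54.

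**Figure D4:**
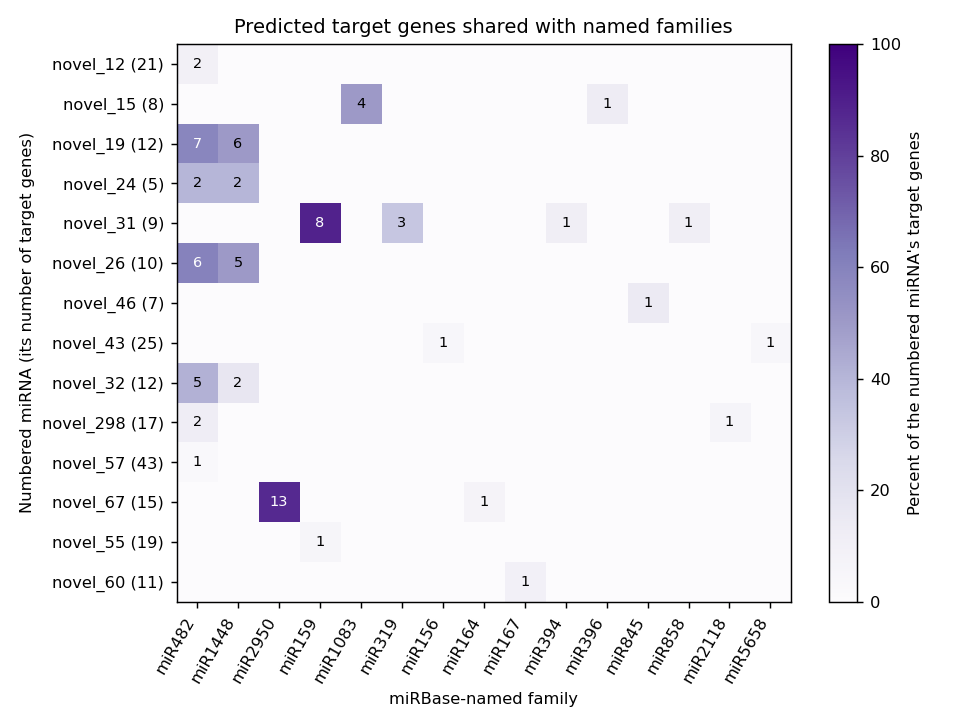
Predicted target genes shared between numbered miRNAs (vertical axis, number of target genes in brackets) and miRBase-named families (horizontal axis); numbers are shared genes and shading is the percent of the numbered miRNA's target genes. The 14 members with any shared gene are shown; novel_31 with miR159 (8 genes), novel_67 with miR2950 (13 genes) and novel_19 and novel_26 with miR482 (7 and 6 genes) stand out.

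At the limit of 1000 reads, the members just inside were novel_180 with 1032 reads in both libraries together, novel_275 with 1170 and novel_194 with 1220. The numbered names just outside were novel_78 with 942 reads, novel_200 with 903 and novel_92 with 872. Their ratios were 3.89, 1.24 and 1.83 inside and 1.07, 0.232 and 3.56 outside. The members whose counts are not given above were uncalled on the total scale, namely novel_272, novel_27, novel_183, novel_184, novel_38, novel_197, novel_56, novel_48, novel_53, novel_308, novel_69 and novel_83. Their ratios ran from 0.550 (0.531 to 0.570) for novel_183 to 1.45 (1.36 to 1.55) for novel_48.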

How the data were processed

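Small RNA reads of 1 green and 1 yellow leaf library were counted per miRNA name by the authors. Per the file headers the deposited values are raw read counts. Bowtie, with no version, is named in the submitters' processing notes; the sources used here name no genome build, miRBase release or predictor of the numbered names or targets. The deposited target table lists genes, miRNA names and a best protein match. It also lists novel_2, which was not analysed here.

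Counts were divided by the column total (CPM), and the ratio of yellow over green was given the exact (Clopper-Pearson) 95% interval of the yellow share of a name's reads. A call needed 20 reads in both libraries together, a 2-fold ratio and an interval without 1. A library with 0 reads was set to a floor of 3 counts in medians and calls. Alternative scalings were edgeR 4.0.16 TMM, DESeq2 1.42.0 median of ratios, the total without novel_1, the total of miRBase names and the total with names of equal counts taken once. Python 3.11.15 with scipy 1.17.1 was used, and the interval and call were tested on simulated counts. Targets were grouped by keywords matched to word beginnings in the protein match. Reads in each library, ratio and interval were given for members with 20000 reads or more, called members and members sharing a target with a miRBase name. For the 3 names on each side of the read limit, at least the summed reads and the ratio were given. Up to 3 target genes per member were named, first those shared with miRBase names and then in order of gene ID; exceptions are marked or were chosen after their values were seen. The members and lists were chosen with earlier results of these data known.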

Additional observations from a re-analysis of the deposited data

How the results depend on the processing

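No paired analysis was possible because each leaf type has 1 library, and for the same reason none could be left out. The members called higher numbered 9 on the total scale (12.1% of the 306 names were higher) and 14 with TMM (20.9% of names). Those called lower numbered 8 (24.8% of names), and 5 with TMM (16.3%) and with median of ratios (17.6%). They numbered 21 with a 1.5-fold limit (34.3% of names) and 4 with a 3-fold limit (15.4%). Among members with 2000 or more reads 5 were lower, with no share of all names at hand for that limit. The members' median log2 ratio of -0.39 was 0.08 with TMM, 0.03 with median of ratios, -0.12 without novel_1 in the total, -0.25 on the miRBase-named total and -0.42 for names with 2000 or more reads, so its sign followed the scaling. Their summed share was 64.7% of green and 68.1% of yellow reads for names with 500 or more reads, 64.1% and 67.55% with 2000 or more, and 64.9% and 68.5% with equal counts taken once. Pairs of members sharing target genes numbered 8 with 2 shared genes and 16 with 1. No member called lower changed sign under the 5 other scalings, and a higher one could not, while 10 uncalled ones crossed 1 with TMM and 9 with median of ratios. Each scaling multiplies all ratios by 1 factor, which moved the counts and the median. Depth limits the ratios of the miR482 names and of ptc-miR1448, each under the minimum of 20 reads. The spread between leaves of 1 type is unknown. The target shares without 1 member and the pairs within the 11 members were chosen after seeing the data.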

Other observations

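Some little-read numbered names list the same genes as an abundant one. For novel_298, 12 of 17 target genes were also listed for novel_193, which had 19 green and 12 yellow reads, and these were 32.4% of the 37 genes of novel_193. For novel_43, 9 of 25 genes were shared with novel_338 (8 and 18 reads, 69.2% of its list) and 9 with novel_243 (9 and 8 reads, 39.1% of its list), and most of these genes matched disease resistance proteins. Both targets of novel_197, Gb_20951 and Gb_34455, matched cytochrome b, a protein of the respiratory chain encoded in the mitochondrial genome of most plants, and both were listed for novel_279 as well. With novel_125 (148 and 59 reads, ratio 0.297), novel_308 shared Gb_00964 and Gb_02123, both matching separase, the protease that parts sister chromatids, while novel_308 itself had 927 and 937 reads and a ratio of 0.754 (0.688 to 0.827).

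Pectin-modifying enzymes recurred in the lists of uncalled members. Gb_25439 and Gb_35881, listed for novel_56 (2381 and 1780 reads, ratio 0.558, 0.524 to 0.593), and Gb_17798 and Gb_26668, listed for novel_53 (1751 and 2277 reads, ratio 0.970, 0.911 to 1.03), matched pectinesterases, which alter the cell wall. These names were chosen after the lists were seen.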
